A study of Pyrus pyrifolia with 6 samples.

Results

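CHH regions whose methylation was lower, but not lost, in the skin of bagged pears, and which lay apart from the many CHH regions that gained methylation, are described here. CHH is a cytosine followed by 2 bases other than G. The regions were taken from the authors' list of 53954 differentially methylated regions by 3 conditions: a mean CHH level that was lower in bagged than in unbagged skin, a level of 5% or more remaining in bagged skin, and no CHH region with a higher level in bagged skin on the same chromosome within 2000 bp. On the 17 chromosomes 2215 regions met them, of 46661 CHH regions there and of 4533 CHH regions with a lower level in bagged skin. They are called partial losses below. The other losses are 736 regions away from gains with a level under 5% in bagged skin, called nearly erased losses, and 1582 regions within 2000 bp of a gain. Both names refer to the level left in bagged skin, not to the part of the unbagged level that was lost. Of the nearly erased losses, 323 still had 25 to under 50% of their unbagged level, whereas 140 partial losses had under 25% of theirs.

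The material was fruit skin of Pyrus pyrifolia 'Cuiguan', a sand pear whose skin turns brown and corky in parts, a state known as semi-russet. Bagged fruit (3 samples) wore single-layer white paper bags from 20 days after full bloom and double-layer yellow-white bags from 40 days, whereas unbagged fruit (3 samples) of the same orchard stayed uncovered. Both came from trees of 7 years and were sampled at 115 days. DNA methylation was read by whole-genome bisulfite sequencing, and each region has 1 mean level per group in which the 3 replicates are combined. How far replicates differed and how many reads stand behind a level are therefore unknown, and no test between bagged and unbagged skin could be made. Skin is a mixture of cell types, so that a level in every cell and a level in some of the cells cannot be told apart.

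In plants, cytosine methylation in CG context is copied after replication by the methyltransferase MET1, and CHG methylation is kept up by CMT3, as worked out in Arabidopsis. CHH sites have no matching cytosine on the other strand to copy. Their methylation has to be set anew, by DRM2, which small RNAs guide to its targets in RNA-directed DNA methylation, or by CMT2, which acts mainly in heterochromatin. DNA glycosylases of the ROS1 and DME family remove methylated cytosines in every context. CHH methylation is known mostly from transposons and other repeats, often close to genes. The genes and repeats at the positions below were not analysed here.

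The partial losses had a median CHH level of 12.7% in bagged skin and 30.5% in unbagged skin, as medians of the authors' means. The middle 50% of the regions had levels of 7.87 to 20.9% in bagged and 21.5 to 42.2% in unbagged skin, and the whole range ran from 5.01 to 68.6% in bagged and from 9.65 to 87.2% in unbagged skin. The median difference, bagged minus unbagged, was -15.3 percentage points, with quartiles of -21.0 and -11.4. The bagged level as a share of the unbagged level, called the share kept, had a median of 46.2% (quartiles 36.8 and 56.7). These values chose the regions and are a description. Lower regions made up 9.71% of the CHH regions on chromosomes, and nothing is read from that share here.

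The partial losses ranged from near erasure to small reductions. Less than 25% of the unbagged level was kept in 140 regions, from 25 to under 50% in 1174, from 50 to under 75% in 881, and 75% or more in 20. In bagged skin 822 regions (37.1%) had a level from 5 to under 10%, and 612 (27.6%) a level of at least 20%. A loss of at least 20 percentage points was found in 614 regions, or 27.7%, beside 2.23% for losses of that size among all CHH regions on chromosomes. For nearly erased losses the share was 10.1% and for losses near gains 22.4%. Losses of at least 30 points occurred in 158 partial losses, and of at least 40 points in 16. The choice used the sign of the difference, the level in bagged skin and the distance to a gain, and set no size of loss directly. The level limit nevertheless bears on these shares, because a loss of 20 points cannot occur under 20% in unbagged skin. Such unbagged levels were found in 617 of 736 nearly erased losses, 461 of 2215 partial losses and 504 of 1582 losses near gains. All CHH regions include the gains, which cannot have a loss of 20 points either. Among the 4533 CHH losses on chromosomes, 1042 were of at least 20 points.

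**Figure D1:**
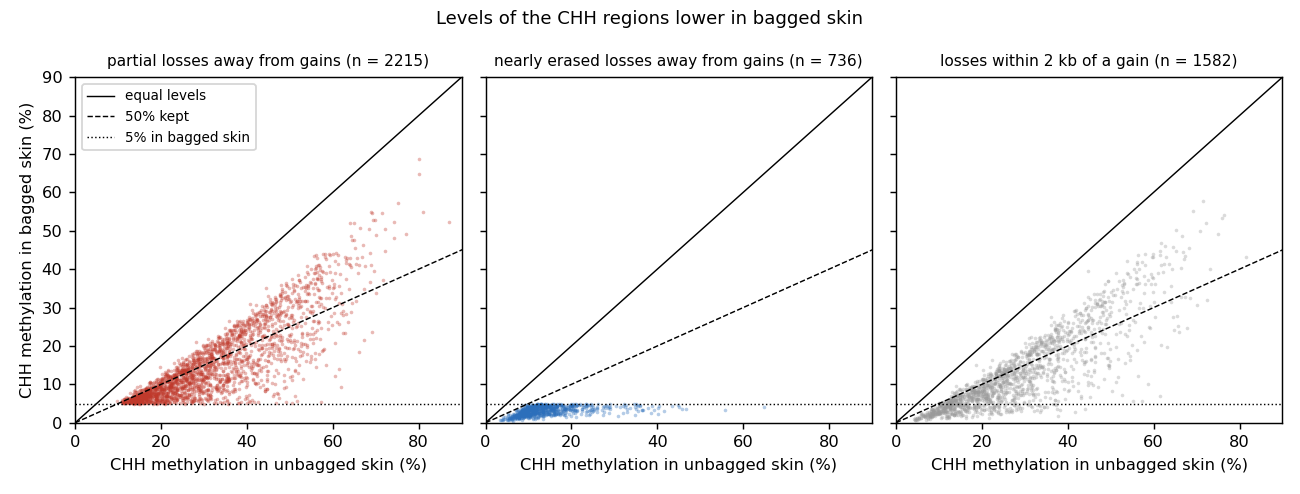
Mean CHH methylation level of each lower region in bagged skin (vertical axis, %) against unbagged skin (horizontal axis, %), with 1 point per region, for the 2215 partial losses, the 736 nearly erased losses and the 1582 losses within 2 kb of a gain. The solid line marks equal levels, the dashed line 50% kept and the dotted line 5% in bagged skin. Partial losses spread on both sides of the dashed line, with 1314 regions under it.

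The share of methylation that was kept was larger where the level in unbagged skin was higher, from 30% upward. Where unbagged skin had under 20%, the 461 partial losses kept a median of 43.5% (quartiles 38.4 and 48.9), with median levels of 6.70% in bagged and 16.3% in unbagged skin. The 620 regions at 20 to 30% kept 43.4%, the 502 regions at 30 to 40% kept 48.4%, and the 345 regions at 40 to 50% kept 52.7%. The 287 regions at 50% or more kept 58.4% (43.0 and 66.9), with medians of 32.4% in bagged and 56.2% in unbagged skin. The loss in percentage points was nevertheless larger at higher levels, with medians of -9.00 points under 20% and -24.5 points at 50% or more. The share kept is made of the 2 levels that chose the regions, so the pattern is a description. The limit of 5% in bagged skin leaves a share of at least 25% to a region at 20% in unbagged skin and of at least 5% to one at 100%. Any smallest difference that the authors' caller required is not known. The part of either limit in the pattern was not tested.

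Losses close to gains had the same order. Among the 1209 losses within 2 kb of a gain that also had 5% or more in bagged skin, the median share kept was 44.2% where unbagged skin had under 20%, and 62.5% where it had 50% or more. The split between partial and nearly erased losses away from gains also went with the level in unbagged skin. Under 20%, 461 of 1078 such losses kept at least 5% (42.8%, 95% exact binomial interval 39.8 to 45.8). At 20 to 30% these were 620 of 700 (88.6%, 86.0 to 90.8), and at 50% or more 287 of 289 (99.3%, 97.5 to 99.9). A fixed limit in bagged skin is more easily undercut from a low level, so this split is a description of the limit as well as of the regions.

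**Figure D2:**
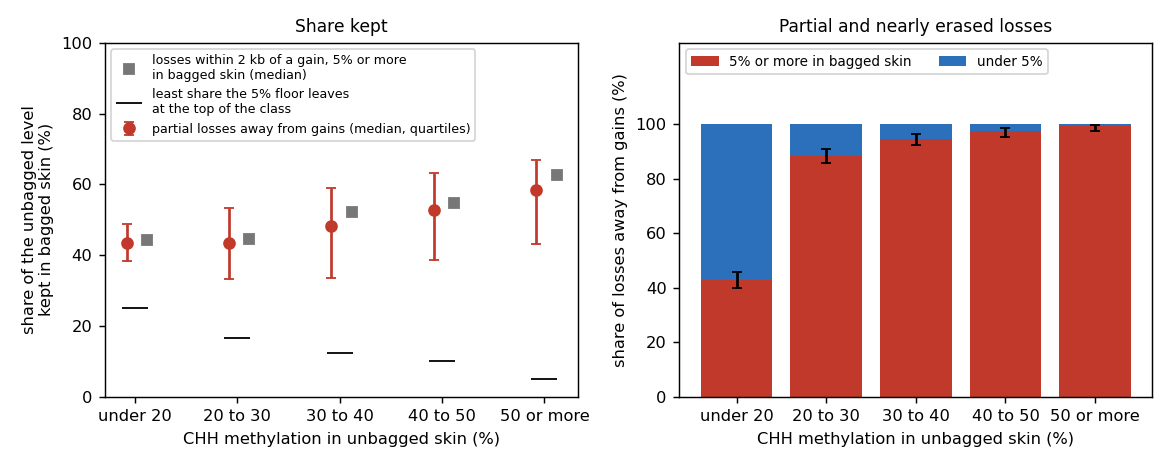
Left, share of the unbagged CHH level that was kept in bagged skin (%), by class of unbagged level, as median and quartiles of the partial losses (circles) and median of the losses near gains with 5% or more in bagged skin (squares), while dashes give the least share the 5% limit leaves at the top of the class. Right, share of the losses away from gains with at least 5% (red) or less (blue) in bagged skin, with 95% exact binomial intervals, from 42.8% partial under 20% to 99.3% at 50% or more.

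The levels of partial losses differed little with the distance to the nearest gain. This distance had a median of 6.40 kb among partial losses (quartiles 3.76 and 11.3 kb), was over 10 kb in 649 regions (29.3%) and over 20 kb in 146. Partial losses 2 to 5 kb from a gain had median levels of 12.7% in bagged and 30.4% in unbagged skin and kept 46.8% (843 regions). Those over 20 kb away had 13.2% and 32.6% and kept 45.0% (146 regions). The 1209 losses nearer than that, within 2 kb of a gain and with 5% or more in bagged skin, had 13.2% and 30.6%, with a median difference of -15.0 points and 48.0% kept. The share of losses that stayed at 5% or more was 75.1% of the 2951 losses away from gains and 76.4% of the 1582 losses near gains. The level limit and the distance both formed these sets, so the shares are a description.

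The gain nearest to each partial loss had a lower level in unbagged skin than the loss itself in 1882 of 2215 cases (85.0%). Over the 2215 cases these gains, of which 2042 were different, had medians of 26.3% in bagged and 12.1% in unbagged skin. All 42128 CHH gains on chromosomes had 24.5% in bagged and 11.7% in unbagged skin, so the gains that border the partial losses had nearly the levels of gains in general. Because lower and higher regions were each selected for their direction, this contrast of unbagged levels is in part set by that selection and was not tested.

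Partial losses were short. Their median length was 93 bp (quartiles 67 and 135 bp) with 23 CHH cytosines (16 and 36), which is 25.6 CHH cytosines per 100 bp. Together they covered 246 kb and 61007 CHH cytosines. Nearly erased losses had medians of 99.5 bp and 24.5 cytosines, losses near gains 91 bp and 24 cytosines, and CHH gains 126 bp and 35 cytosines. The number of CHH cytosines listed per 100 bp was 25.6 in nearly erased losses, 26.3 in losses near gains and 28.4 in gains. At least 10 cytosines were present in 2061 partial losses (93.0%), and the share kept differed little with their number. Regions of 10 to 19 cytosines kept a median of 47.6%, and those of 50 or more kept 44.0%. The 154 regions with fewer than 10 cytosines had a larger median loss, -17.6 points, and kept 42.7%.

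The largest losses among regions with at least 10 cytosines left very different remainders. Positions are those of the authors' list, with a genome build not given in the sources used here. On chromosome 5 from 4055845 to 4055956, bagged skin had 5.39% and unbagged skin 57.3% over 19 CHH cytosines, so that 9.41% of the level was kept, with a bagged level close to the limit of 5%. On chromosome 3 from 8561410 to 8561576 the levels were 12.3% in bagged and 60.6% in unbagged skin. The region on chromosome 7 from 4449448 to 4449611 had 13.9% in bagged and 61.5% in unbagged skin.

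On chromosome 4 from 11821570 to 11821708, bagged skin had 5.67% and unbagged skin 51.6%, with the nearest gain 23.7 kb away. The fifth, on chromosome 15 from 33384049 to 33384109, kept more, with 23.5% in bagged and 69.1% in unbagged skin. Of these 5 regions 3 had another CHH loss at 2.42 to 3.44 kb. Within 5000 bp another CHH loss was listed for 330 of all 2215 partial losses (14.9%). With 5 regions no comparison of these shares was made. Over all partial losses the largest, -52.5 points, rested on 5 cytosines of chromosome 5 between 2321159 and 2321220. Bagged skin had 9.28% there and unbagged skin 61.8%, and this region was named after its values were seen.

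At the other end were small losses between low levels. The smallest loss, of -3.90 points, rested on 41 cytosines of chromosome 9 between 17259384 and 17259512, with 5.75% in bagged and 9.65% in unbagged skin. It was followed by chromosome 5 from 10701471 to 10701534, with 7.73% in bagged and 12.7% in unbagged skin, and by chromosome 17 from 28019205 to 28019256, with 5.89% and 10.9%. Chromosome 7 from 10877045 to 10877103 had 6.21% in bagged and 11.3% in unbagged skin, and chromosome 14 from 10776936 to 10777036 had 6.75% and 11.9%. These 5 regions kept 53.8 to 61.0% of their level, more than the median partial loss. They were picked for a small loss, and with at least 5% left in bagged skin the share kept is then large by construction.

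The regions that stayed most methylated in bagged skin had 68.9 to 80.0% in unbagged skin. An unbagged level above the bagged level was a condition of the choice, so high unbagged levels follow from it. On chromosome 12 from 9319289 to 9319343, bagged skin had 68.6% and unbagged skin 80.0% over 10 cytosines, and the share kept, 85.7%, was the largest of all partial losses. On chromosome 6 from 14950932 to 14951047, with 25 cytosines, bagged skin had 64.9% and unbagged skin 80.0%. Levels of 57.3% in bagged and 75.2% in unbagged skin were found on chromosome 5 from 10838942 to 10839065.

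A second region on chromosome 12, from 13420857 to 13420914, had 54.8% in bagged and 68.9% in unbagged skin. On chromosome 15 from 2369840 to 2369984, the levels were 54.6% in bagged and 71.5% in unbagged skin. In all, 62 partial losses (2.80%) still had 40% or more in bagged skin.

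Length and number of cytosines did not always go together. The longest partial loss, on chromosome 14 from 6358562 to 6362273, was 3712 bp long and held 36 CHH cytosines, or 0.970 per 100 bp, with 18.2% in bagged and 28.1% in unbagged skin. A stretch of 1137 bp on chromosome 10, from 18049471 to 18050607, came next, and its 5 cytosines averaged 6.11% in bagged and 30.9% in unbagged skin. The third, of 851 bp on chromosome 17 from 23924234 to 23925084, held 15 cytosines that averaged 10.5% in bagged and 27.4% in unbagged skin. The numbers listed for these stretches stood far below the 25.6 CHH cytosines per 100 bp of the median partial loss. Whether the authors' number counts every CHH cytosine of a region or only those with reads is not known. A low number therefore need not mean a sequence poor in CHH sites. In all, 23 partial losses were 300 bp or longer.

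The most cytosines lay in regions of 301 to 371 bp, longer than most partial losses, with 33.1 to 38.2 CHH cytosines per 100 bp. Chromosome 10 from 1642941 to 1643311 held 126 cytosines, whose level averaged 13.6% in bagged and 27.6% in unbagged skin. Between 9644466 and 9644831 on chromosome 12 there were 121, with 12.6% in bagged and 32.0% in unbagged skin. Between 18669409 and 18669709 on chromosome 2 there were 115, with 22.3% in bagged and 44.4% in unbagged skin. The same 3 regions had the lowest area statistics of all partial losses in the authors' deposited table, namely -678, -755 and -833. In 1 partial loss, on chromosome 14 from 19545127 to 19545346, the area statistic in the authors' deposited table was positive, at 38.8, although the mean level was lower in bagged skin (21.0%) than in unbagged skin (28.1%).

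The regions nearest to the limits show how fine the selection was. Just inside the level limit were regions with 5.01% in bagged and 35.7% in unbagged skin on chromosome 14, with 5.01% and 13.7% on chromosome 10 and with 5.01% and 18.2% on chromosome 4. Just outside it were regions with 4.99% in bagged and 28.9% in unbagged skin on chromosome 15, with 4.99% and 12.8% on chromosome 1 and with 4.99% and 19.8% on chromosome 12. Just past the limit on distance, partial losses lay 2012, 2013 and 2015 bp from a gain, with 8.05% in bagged and 19.7% in unbagged skin, 6.34% and 31.4%, and 7.09% and 30.9%. Just within it, losses at 2000, 1998 and 1993 bp had 20.3% in bagged and 34.5% in unbagged skin, 13.1% and 24.5%, and 8.94% and 22.8%.

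CG and CHG methylation, which the selection did not use, differed in the same direction wherever a changed region of these contexts overlapped a partial loss. By an overlap of at least 1 bp, 25 partial losses (1.13%, 95% exact binomial interval 0.732 to 1.66) met a CG region lower in bagged skin, and 0 met a CG region higher in bagged skin (interval up to 0.166%). Of all CHH regions on chromosomes, 0.212% overlapped a lower and 0.274% a higher CG region. A CHG region lower in bagged skin overlapped 18 partial losses (0.813%, 0.482 to 1.28), and a higher one overlapped 0. The corresponding shares of all CHH regions were 0.131% for lower and 0.332% for higher CHG regions. Altogether 39 of the 2215 partial losses overlapped a changed CG or CHG region. These shares depended on the limits: of the 614 partial losses of at least 20 points 1 overlapped a CG region (0.163%, under the 0.212% of all CHH regions with a lower one), and with a limit of 10% in bagged skin 0.431% overlapped a CHG region.

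The other losses also met mainly lower regions. Of the nearly erased losses 1.49% overlapped a lower CG region and 0.815% a lower CHG region, and 0 a higher one of either context. Of the losses near gains 1.64% overlapped a lower CG region and 1.58% a lower CHG region, and 1 region each a higher CG and a higher CHG region. CHH gains overlapped a higher CG region in 0.301% and a higher CHG region in 0.366%. The exact intervals of partial and nearly erased losses overlapped in both contexts. They cover counting error only, because neighbouring regions are not independent, and the differences between the sets were not tested.

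**Figure D3:**
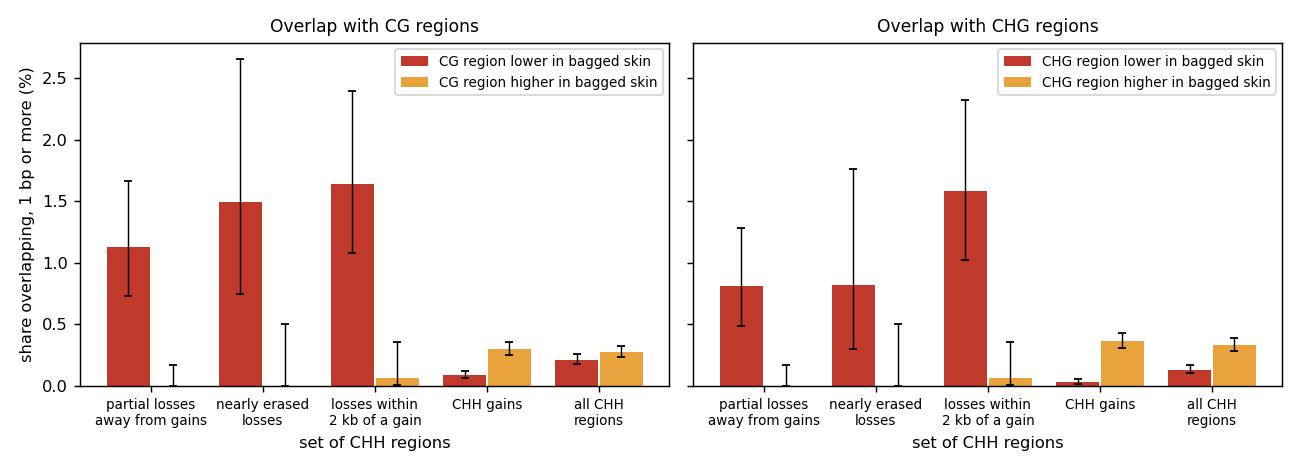
Share of CHH regions (%) that overlap a CG region (left) or CHG region (right) by at least 1 bp, split by the direction of that region in bagged skin, with 95% exact binomial intervals. Partial losses overlapped lower regions in 1.13% (CG) and 0.813% (CHG) of cases and higher ones in 0, whereas CHH gains met mostly higher regions.

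At the 25 overlaps with CG regions, the median shares kept in CHH and CG methylation were close, but single pairs differed. The share kept ranged from 36.5 to 71.3% in CHH and from 23.3 to 77.3% in CG context. The CHH level had a median of 13.3% in bagged and 27.0% in unbagged skin, and the CG level a median of 22.7% in bagged and 53.0% in unbagged skin. The median share kept was 49.9% in CHH and 44.0% in CG context, and the CHH share was the larger in 16 of 25 pairs. In percentage points the CG loss was the larger in all but 2 pairs, with medians of -25.7 in CG and -12.6 in CHH context. All 1207 lower CG regions on chromosomes had median levels of 34.2% in bagged and 63.7% in unbagged skin and kept 56.0%.

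The 18 overlaps with CHG regions were alike. CHH levels had medians of 9.17% in bagged and 20.8% in unbagged skin, and CHG levels 23.0% in bagged and 56.3% in unbagged skin. The median share kept was 49.0% in CHH and 45.3% in CHG context, with the CHH share the larger in 9 of 18 pairs. The 39 partial losses that overlapped either context were longer than the 2176 others, with medians of 133 and 92 bp, and held more cytosines, 38 against 23. Longer regions have more room for an overlap, and its part in these shares was not tested. The CHH loss of the 39 regions was smaller, at a median of -11.7 points against -15.3 points in the others. Their levels were also lower, with medians of 9.81% in bagged and 24.9% in unbagged skin against 12.7% and 30.6%. The median share kept was 49.5% in the 39 regions and 46.1% in the others.

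**Figure D4:**
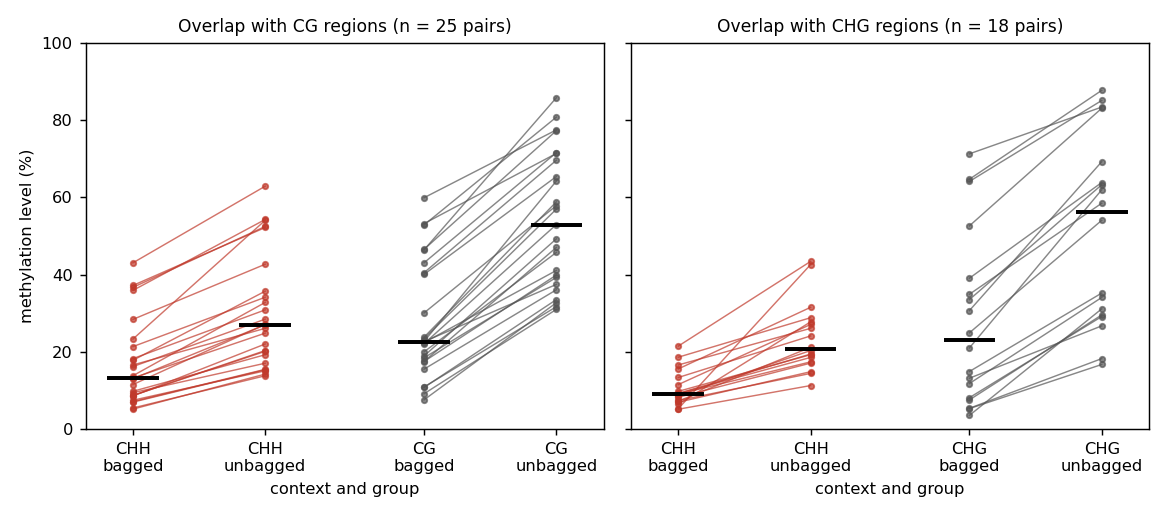
Methylation levels (%) in bagged and unbagged skin at each partial loss that overlaps a CG region (left, 25 pairs) or a CHG region (right, 18 pairs). Red lines join the CHH levels of 1 region, grey lines the levels of the overlapping region, and black bars are medians. Every line is lower in bagged skin, with median CG levels of 22.7% in bagged and 53.0% in unbagged skin.

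All 3 contexts were lower together at 4 partial losses. On chromosome 7 from 14846895 to 14847085, CHH methylation was 11.6% in bagged and 27.1% in unbagged skin. The CG region there, with 28 cytosines from 14846904 to 14847079, had 7.61% in bagged and 32.7% in unbagged skin, and the CHG region, with 19 cytosines from 14846870 to 14847039, had 8.18% and 29.2%. All contexts of this locus were near 30% in unbagged skin, and in bagged skin the symmetric contexts were below the CHH level.

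On chromosome 8 from 21655015 to 21655138, CHH levels were 16.6% in bagged and 26.1% in unbagged skin. CG levels there were 10.8% in bagged and 33.5% in unbagged skin, and CHG levels 7.60% and 29.6%. In unbagged skin CG methylation was the highest and CHH methylation the lowest at both of these loci, and in bagged skin CHH methylation was the highest.

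At the other 2 loci CG methylation was the highest and CHH methylation the lowest in both groups. On chromosome 5 from 14318208 to 14318334, CHH methylation was 8.71% in bagged and 20.4% in unbagged skin, CG methylation 53.2% and 71.3%, and CHG methylation 34.9% and 58.5%. On chromosome 16 from 8051508 to 8051647, CHH methylation was 9.81% in bagged and 19.3% in unbagged skin, CG methylation 52.9% and 80.7%, and CHG methylation 39.1% and 63.8%. At both, the CHH context kept a smaller share of its level than the symmetric contexts, for example 42.8% in CHH and 74.6% in CG context on chromosome 5.

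Beyond the overlap both directions occurred. The nearest lower CG region lay within 2000 bp without overlapping at 22 partial losses, and the nearest higher CG region at 11. Of the CG regions on chromosomes 61.6% were lower. For CHG regions at such a distance the numbers were 16 partial losses with a lower and 21 with a higher region, and 49.7% of the CHG regions on chromosomes were lower. Within 500 bp the numbers were 6 lower and 6 higher in each of the 2 contexts. The CG and CHG regions that shared sequence with a partial loss were, in contrast, all lower.

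Partial losses were mostly single. Of the 2215, 2065 had no other partial loss within 2000 bp, 140 formed 70 pairs, 6 formed 2 runs of 3 and 4 formed 1 run of 4. Counting any CHH loss, 192 (8.67%, exact interval 7.53 to 9.92) had another within 2000 bp, beside 7.81% of all CHH losses on chromosomes, and the median distance to the next loss was 32.0 kb. The next CHH regions on the left and right were both gains for 1596 partial losses (72.1% of the 2213 with neighbours on both sides), and both were losses for 65. For nearly erased losses 72.0% stood between gains, for losses near gains 84.0%, and for all CHH regions on chromosomes 81.6%. Lying apart from gains was part of the choice, so these shares are a description.

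Consecutive partial losses at most 2000 bp apart resembled each other a little more than distant ones. In 77 such neighbours the share kept differed by a median of 9.46 percentage points, against 12.6 points in 461 neighbours over 2 and up to 50 kb apart and 13.2 points in 1660 neighbours farther apart. Their unbagged levels differed by medians of 10.7, 12.4 and 13.0 points in the same order. Their bagged levels differed by medians of 6.92, 8.24 and 7.82 points, with the largest value between 2 and 50 kb. No test was made of these differences. Another CHH loss within 200 bp was listed for 57 partial losses.

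The run of 4 lay between 2920050 and 2922263 on chromosome 5, a span of 2214 bp with 101 CHH cytosines in its regions. Its outermost region had 7.75% in bagged and 16.2% in unbagged skin. The other 3 lay within 653 bp and had higher levels, with 28.9% in bagged and 47.8% in unbagged skin, 18.7% and 47.2%, and 32.4% and 57.1%. The nearest gain was at least 15.5 kb from any of them.

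The runs of 3 were between 28341180 and 28342444 on chromosome 17 and between 30125372 and 30126508 on chromosome 10. The regions on chromosome 17 had 16.0% in bagged and 44.8% in unbagged skin, 8.39% and 29.4%, and 7.99% and 34.2%. Those on chromosome 10 had nearly the same level in bagged skin, with 15.5% in bagged and 34.1% in unbagged skin, 15.4% and 35.5%, and 16.1% and 48.0%. The run on chromosome 17 also lay in the 1-Mb stretch with the most partial losses, 15 among 106 CHH regions. The median of 496 such stretches was 4. The 3 regions of the run are among these 15, and the stretch was picked by its count. Stretches on chromosomes 12 and 13 followed with 12 each, and partial losses were 4.75% of all CHH regions on chromosomes.

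Partial losses occurred on every chromosome, from 99 on chromosome 4 to 170 each on chromosomes 5 and 15. As a share of the CHH regions of the chromosome they ranged from 3.89% on chromosome 16 (111 of 2851, exact interval 3.21 to 4.67) to 5.49% on chromosome 10 (163 of 2969, 4.70 to 6.37), with 4.75% over all chromosomes. As a share of the CHH losses they ranged from 43.2% on chromosome 4 to 59.2% on chromosome 12. The median levels differed between chromosomes, and these differences were not tested. The median in bagged skin was 10.1% on chromosome 16, the lowest, and 14.5% on chromosome 7, the highest, and that in unbagged skin was 25.9% and 33.6% on the same chromosomes. The median share kept lay between 42.7% (chromosome 16) and 48.5% (chromosome 17).

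Along the chromosomes the partial losses were spread evenly. Each chromosome was divided into 10 equal segments up to its last listed region, since chromosome lengths were not used here, and each segment, summed over chromosomes, held between 9.48 and 10.9% of the partial losses. CHH gains were more frequent in the middle, with 11.4% in segment 5 and 8.55% in segment 10. Losses within 2 kb of a gain followed the gains, with 13.0% in segment 5 and 7.52% in segment 10. Since partial losses were chosen for their distance from gains, fewer of them can be found where gains are dense, and the 3 profiles are a description.

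**Figure D5:**
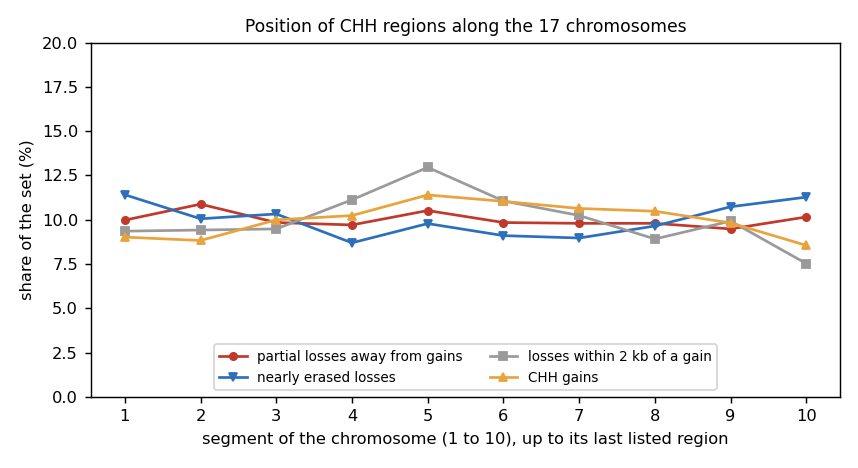
Share of each set of CHH regions (%) in 10 equal segments of the chromosome, summed over 17 chromosomes, for partial losses, nearly erased losses, losses within 2 kb of a gain and gains. Partial losses stay between 9.48 and 10.9% in each segment, while gains have 11.4% in segment 5 and 8.55% in segment 10.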

How the data were processed

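Per the labels' protocols, skin DNA of 3 bagged and 3 unbagged samples went into Accel-NGS Methyl-Seq libraries after bisulfite treatment. The submitters' processing notes list FastQC and the aligner Bismark 0.16.3. Genome build, region caller with its thresholds, bisulfite conversion rate and trimming of the low-complexity tails of this kit were not given in the sources used here. Untrimmed tails can bias calls near read ends. The authors deposited 1 table of regions with the mean methylation fraction of each group, printed here as a percentage. The area statistic, a score of the authors' caller per the file headers, is not explained there. The column of cytosine numbers was read as counting those of the region's own context. Whether it counts all of them or only those with reads is not given.

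From the table, differences and shares kept were computed with pandas 2.3.3 (Python 3.11.15), and gaps were counted as the bases between 2 regions. The 3548 regions on scaffolds were left out. Exact (Clopper-Pearson) binomial intervals at 95% were computed with scipy 1.17.1 and cover counting error only. The choice of regions, gaps and overlaps was tested on simulated regions. The regions and all comparisons were chosen with earlier results of these data known. Regions named in the text were the 5 largest and 5 smallest losses and the 5 highest levels in bagged skin among those with at least 10 cytosines, the 3 longest, the 3 with the most cytosines, the 3 with the lowest area statistic, those overlapping both other contexts (and, had there been any, a region of the opposite direction), the 3 largest runs and the 3 nearest to each limit. Named besides these were the largest loss of all and the region with a positive area statistic, both after their values were seen. Since the replicates are combined, no test across samples was made.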

Additional observations from a re-analysis of the deposited data

How the results depend on the processing

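No paired analysis was possible because the replicates are combined in the authors' means, and for the same reason no replicate could be left out. Of 84 alternative values other than those without 1 chromosome, 60 stayed within the 95% binomial interval of the median or share, or within 1.5 times the number of regions, and 24 did not, and the 68 values without 1 chromosome all stayed. The rule fixes the sign of the difference under every alternative. With each chromosome left out in turn, the median levels were 12.6 to 12.8% in bagged and 30.3 to 30.7% in unbagged skin, the difference -15.3 to -15.2 points and the share kept 46.0 to 46.5%. A limit of 2% in bagged skin gave medians of 9.79% in bagged and 26.2% in unbagged skin, -14.2 points and 41.9% kept. A limit of 10% left 1393 regions with 18.4% and 37.8%, -16.6 points and 53.4% kept, 0.431% overlapping a CHG region and 4.02% with another partial loss within 2000 bp. A gap limit of 5000 bp left 1372 regions. A loss of at least 20 points left 614, with 16.0% in bagged and 44.3% in unbagged skin, -25.4 points, 36.9% kept, a median length of 103.5 bp, 0.163% overlapping a CG region and 3.09% with a neighbour within 2000 bp. The share overlapping a CG region among these is 1 of 614 regions. Within 500 bp instead of by overlap, 1.67% met a CG and 1.35% a CHG region. Another partial loss was found for 4.83% within 1000 bp and for 10.8% within 5000 bp, against 6.77% within 2000 bp. Stricter limits lower the numbers by construction. A limit on the bagged level or on the loss also sets the direction in which the median of that same value shifts. A wider distance can likewise only raise a share. The cause of the other shifts was not tested. The depth behind each level is unknown, which limits every single region.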
